A study of Mus musculus with 8 samples.

Results

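Striatal projection neurons and the dopamine system that acts on them were followed through 9 messages in polyribosome-associated RNA from mouse hippocampus and prefrontal cortex. The 9 genes were taken by name as a gauge of striatal tissue in the dissections: the receptors Drd1, Drd2 and Adora2a, the signalling proteins Ppp1r1b and Pde10a, the peptide precursors Penk and Tac1, the transcription factor Six3, and the enzyme Th. Each had 1 row in the count table, so the 9 rows were members out of 28157 rows and 21643 named genes. The mice were of strain C57Bl/6 and 7 to 9 weeks old, and RNA associated with polyribosomes, the ribosome clusters on messages under translation, was sequenced. There were 8 libraries, 1 for each combination of tissue, training and time, so no combination had a replicate. RNA was taken 6 h or 1 h after contextual fear conditioning, in which a chamber is paired with shock, and control mice met the context alone. The hippocampus libraries were conditioned 6 h, control 6 h, conditioned 1 h and control 1 h, and the frontal cortex libraries were the same 4. No genetic change is named in the labels. The design text names the prefrontal cortex of 8 adult mice, whereas 4 of the 8 libraries are labelled hippocampus, and the number of animals behind each library is not given.

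The striatum lies beneath the frontal cortex, and nearly all of its neurons are inhibitory projection neurons. They fall into a direct-pathway class with D1 dopamine receptors and the peptide substance P, and an indirect-pathway class with D2 dopamine receptors, adenosine receptors of the Adora2a type and enkephalin. Dopamine reaches them from axons of midbrain neurons, whose messages lie mostly in the cell bodies there. Drd1 encodes the D1 receptor, which raises cyclic AMP, and Drd2 the D2 receptor, which lowers it. Adora2a encodes an adenosine receptor that raises cyclic AMP in indirect-pathway neurons. Ppp1r1b encodes DARPP-32, which becomes an inhibitor of protein phosphatase 1 once protein kinase A has phosphorylated it. Pde10a encodes a phosphodiesterase that breaks down cyclic nucleotides and is abundant in both classes. Penk encodes the precursor of the enkephalins, and Tac1 the precursor of substance P. Six3 is a homeodomain factor needed for the development of striatal indirect-pathway neurons. Th is tyrosine hydroxylase, the rate-limiting enzyme of dopamine synthesis. Several of these genes are also used outside the striatum: Drd1, Ppp1r1b, Penk and Tac1 in cortical neurons, and Th in olfactory bulb and some cortical interneurons.

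Promoter sequences are shown for 3 members: Tac1, which lay between the tissues in the conditioned 1 h libraries as most members did, Six3, which stood with hippocampus control there, and Th, which lay above both controls. They come from RefSeq for build GRCm38.p6 and run from 250 bases before to 50 bases after the annotated start, 5′ to 3′ on the gene's strand. The Tac1 window is chr6:7554811-7555110 on the plus strand, the Six3 window chr17:85620584-85620883 on the plus strand and the Th window chr7:142899946-142900245 on the minus strand. Capitals mark matches to the cyclic AMP response element TGACGTCA or to its core TGACG, on either strand.
Tac1: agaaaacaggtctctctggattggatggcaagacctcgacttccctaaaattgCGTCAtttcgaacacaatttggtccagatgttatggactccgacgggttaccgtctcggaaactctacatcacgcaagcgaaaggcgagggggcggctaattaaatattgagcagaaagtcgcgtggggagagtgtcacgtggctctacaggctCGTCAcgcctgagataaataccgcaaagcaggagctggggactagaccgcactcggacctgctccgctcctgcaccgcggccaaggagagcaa
Six3: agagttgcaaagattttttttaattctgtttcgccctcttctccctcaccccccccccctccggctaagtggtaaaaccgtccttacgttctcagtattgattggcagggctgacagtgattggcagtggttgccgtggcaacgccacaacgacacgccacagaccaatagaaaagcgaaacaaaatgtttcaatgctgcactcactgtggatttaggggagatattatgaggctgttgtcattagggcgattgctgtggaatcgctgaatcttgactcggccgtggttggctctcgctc
Th: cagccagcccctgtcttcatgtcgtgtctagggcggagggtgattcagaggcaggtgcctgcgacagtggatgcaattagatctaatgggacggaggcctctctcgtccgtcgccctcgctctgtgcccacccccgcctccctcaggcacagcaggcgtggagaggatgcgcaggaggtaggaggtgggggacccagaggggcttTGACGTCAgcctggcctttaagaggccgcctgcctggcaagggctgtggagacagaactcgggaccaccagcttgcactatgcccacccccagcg
Of all 32851 promoter windows in the table, 1.79% held the full element and 20.8% held the core, which lies inside the full element and was counted there too. Th held the full element, starting 45 bases before its start site. Tac1 held the core at 2 places, 197 and 43 bases before its start, both on the opposite strand and so written CGTCA. Six3 held neither, nor the TATA letters TATAAA (13.6% of windows) or the GC box GGGCGG (35.7%). Of the 9 members, 6 had a promoter in the table, with 8 windows in all, and the full element was found in that of Th alone. None of the 8 windows held TATAAA, and Drd2 (chr9:49340153-49340452, plus strand) held 2 GC boxes. A match is a description of letters and no match says only that they are not in this window. Promoters of Adora2a, Ppp1r1b and Penk are named only.

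Library totals ran between 2370973 and 5296986 counts, and hippocampus control 6 h was the shallowest. In that library Kif5c took 8.01% of the counts, against 0.0382% to 0.545% in the other libraries, and its TMM scaling factor was 0.732, against 0.974 to 1.15. The libraries labelled hippocampus conditioned 1 h and cortex conditioned 1 h differed by about the sampling noise: the variance ratio of their counts over rows with at least 20 counts was 1.08, while every other pair of libraries reached at least 4.93. They were also no clear match to their labels. Genes of hippocampal granule and pyramidal neurons averaged 4.75 on the log2 CPM scale in both, against 5.65 to 6.31 in the other 3 hippocampus libraries and 1.77 to 1.96 in the other 3 cortex libraries. This pair was therefore counted as 1 sample, kept out of the main fits and described on its own. The tissue comparison thus rested on 3 libraries a tissue, which differ in training and time, and p-values measure the spread between these libraries only. In bulk RNA, fewer cells of a type and less RNA per cell cannot be told apart.

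**Figure D1:**
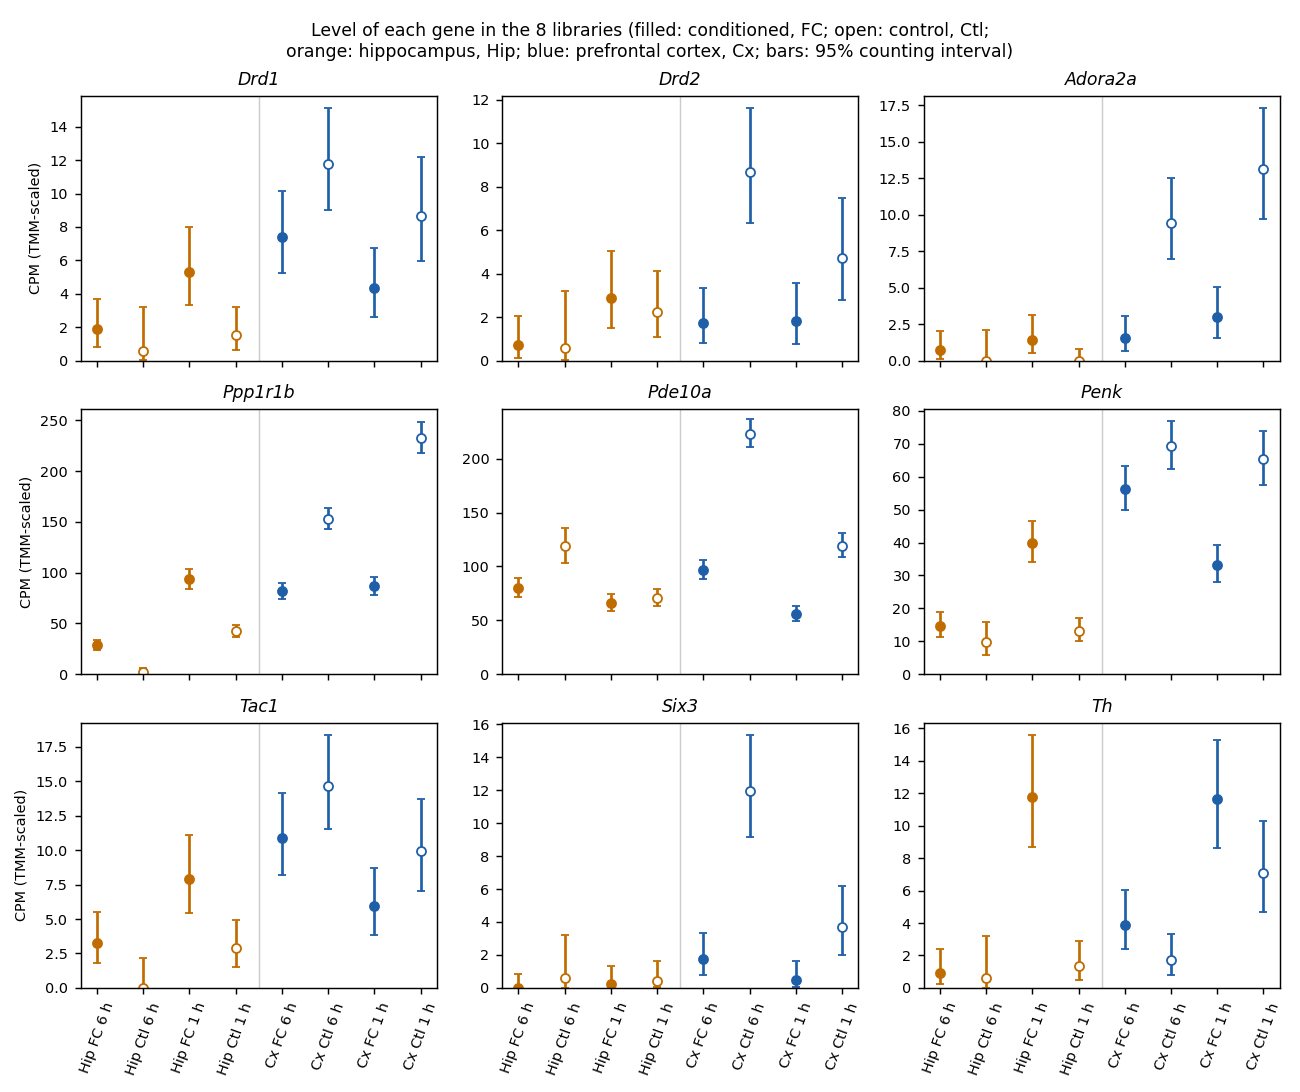
Scaled read counts (CPM with TMM factors, linear axis) of each of the 9 genes in the 8 libraries, with hippocampus (Hip, orange) left of prefrontal cortex (Cx, blue), conditioned libraries (FC) filled and control libraries (Ctl) open. Bars are 95% exact counting intervals. Apart from the conditioned 1 h pair, the cortex libraries lay above every hippocampus library for 7 genes, with Drd2 and Pde10a as the exceptions.

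Per kilobase of transcript, Ppp1r1b stood highest in both tissues, and Penk came next in cortex. Mean levels were 12.2 CPM per kilobase in hippocampus and 77.9 in cortex for Ppp1r1b, and 8.67 in hippocampus and 43.9 in cortex for Penk. Pde10a had 11.6 CPM per kilobase in hippocampus, above Penk there, and 18.9 in cortex, and Tac1 followed with 1.67 in hippocampus and 9.63 in cortex. The other 5 members, the receptors, Six3 and Th, were scarce at 0.0898 to 0.519 CPM per kilobase in hippocampus and 1.57 to 3.10 in cortex. In counts, Pde10a (3497 over the 8 libraries), Ppp1r1b (3186) and Penk (1349) carried the precision, while Six3 had 91 and Drd2 106.

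Hippocampus libraries held less of these messages than cortex libraries. By the quasi-likelihood test of edgeR over 6 libraries, adjusted over all 15555 rows that passed the low-count filter at 0.05, Drd1, Ppp1r1b, Penk and Tac1 were lower in hippocampus. That is 4 of the 6 members tested, where 1.9% of all rows were called lower, and no member was called higher, where 1.58% of rows were (3.48% in either direction). The median log2 change was -2.33 over these 6 and 0.01 over all rows. The filter, with tissue as the group, removed Adora2a, Six3 and Th, so those 6 do not stand for all 9. These 3 are given from a fit with no filter, over 21904 rows, of which 2.36% were called lower and 1.84% higher. Drd1 passed the filter through its cortex libraries alone. Scaled by library totals, it had 7.17 to 11.6 CPM in the 3 cortex libraries and 0.422 to 1.83 in the 3 hippocampus libraries. For Drd1, entry into the test and a lower level in hippocampus are therefore not separate facts. By CPM alone, with no allowance for counting error, 7 of the 9 members had every hippocampus library below every cortex library. Of 11339 genes that passed the low-count filter, 6.32% did. Adora2a, Six3 and Th, all among the 7, did not pass that filter. Of the 6 members that passed, Drd2 and Pde10a overlapped between the tissues. The calls depend on which libraries enter: with all 8 as labelled, so with the conditioned 1 h pair in, edgeR called 0 rows of 15514 (1493 at an unadjusted p under 0.05) and Penk was at -1.68 (adjusted p = 0.265). Without cortex control 1 h, 2 of the members were called, Penk and Ppp1r1b, where 136 of 15933 rows were. Without hippocampus control 6 h, 7 members were called, where 858 of 16106 rows were. That fit kept all 9 members, so its count is not on the same footing as the 4 of 6.

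Of the receptors, Drd1 had 1.86 CPM in hippocampus conditioned 6 h, 0.578 in control 6 h and 1.56 in control 1 h, against 7.40, 11.8 and 8.66 CPM in the cortex libraries of the same sessions. The groups did not overlap, since the highest hippocampus library stood at 1.86 and the lowest cortex library at 7.40 CPM. Means were 1.33 ± 0.672 CPM in hippocampus and 9.27 ± 2.24 in cortex (SD, n = 3 each), a log2 change of -2.58 (SE 0.52, edgeR adjusted p = 0.00501). The call was lost without hippocampus control 1 h (adjusted p = 0.0828) and without cortex control 1 h (0.0916). Drd2 had 0.699, 0.578 and 2.23 CPM in the hippocampus libraries, in the same order, against 1.75, 8.68 and 4.73 CPM in the cortex libraries. Here the groups overlapped, since cortex conditioned 6 h lay below hippocampus control 1 h. Its log2 change of -1.77 (SE 0.61) did not pass (edgeR adjusted p = 0.142). Adora2a had 3 counts in hippocampus conditioned 6 h and none in the control libraries, where a count of 0 allows up to 1.74 CPM at 6 h and 0.669 CPM at 1 h. In cortex it had 1.56 CPM in conditioned 6 h, 9.45 in control 6 h and 13.1 in control 1 h. By CPM the groups did not overlap, but the limit of 1.74 CPM in hippocampus control 6 h exceeds the cortex conditioned 6 h value, so the separation from that library was not detectable at this depth. Over the 3 libraries each, hippocampus had 3 counts and cortex 107, a ratio of hippocampus to cortex of 0.0377 (95% counting interval 0.00766 to 0.113). The unfiltered edgeR fit gave -4.40 (SE 0.76, adjusted p = 1.23e-06), a value that leans on the prior count: it was -2.83 without hippocampus control 1 h, where the call was lost (adjusted p = 0.226), and -8.63 without hippocampus conditioned 6 h.

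The 2 signalling proteins differed from each other. Ppp1r1b had 28.7 CPM in hippocampus conditioned 6 h, 2.31 in control 6 h and 42.4 in control 1 h, against 81.6, 153 and 233 CPM in the cortex libraries of the same sessions. All 3 hippocampus libraries were lower than all 3 cortex libraries, and hippocampus control 6 h stood far below the others with 4 counts. The log2 change was -2.85 (SE 0.52, edgeR adjusted p = 0.00239); without hippocampus control 6 h it was -2.03 (adjusted p = 5.58e-08). DESeq2 gave -3.12, which did not pass (adjusted p = 0.0882). Pde10a had 80.2, 119 and 70.7 CPM in the hippocampus libraries in that order, against 96.9, 223 and 119 CPM in the cortex libraries. The groups overlapped, and hippocampus control 6 h was the highest of its tissue. Its change of -0.65 (SE 0.31) did not pass (edgeR adjusted p = 0.381). Pde10a thus had the tissue difference nearest to 0 of the 9 and did not share the low value of Ppp1r1b in hippocampus control 6 h. The Ppp1r1b transcript has 2001 bases with 61.0% GC, and that of Pde10a 7769 bases with 48.3% GC. The part of length and GC content in the values of that library was not tested.

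Both peptide precursors were lower in hippocampus. Penk had 14.7, 9.83 and 13.2 CPM in hippocampus conditioned 6 h, control 6 h and control 1 h, against 56.3, 69.4 and 65.4 CPM in the cortex libraries of those sessions. Within each tissue the values stayed close together, and the tissues were far apart. Means were 12.6 ± 2.48 CPM in hippocampus and 63.7 ± 6.73 in cortex (SD, n = 3 each), with a log2 change of -2.33 (SE 0.36, edgeR adjusted p = 0.000504). Tac1 had 3.26 CPM, a count of 0 (which allows up to 1.74 CPM) and 2.90 CPM in the hippocampus libraries, against 10.9, 14.7 and 9.98 CPM in the cortex libraries. The groups did not overlap, and the log2 change was -2.34 (SE 0.56, edgeR adjusted p = 0.0202). The call was lost with upper-quartile factors (adjusted p = 0.0943), without hippocampus control 1 h (0.0930) and without cortex control 1 h (0.0960). The balance between the peptides was alike everywhere: of the Tac1 and Penk counts together, Tac1 took 13.2% to 18.2% in the 7 libraries where it had counts. In hippocampus control 6 h it took 0 of 17, for which the exact binomial interval reaches 19.5%.

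Six3 and Th were rare in hippocampus. Six3 had 0 counts in hippocampus conditioned 6 h (up to 0.699 CPM), 1 in control 6 h and 2 in control 1 h, against 9, 62 and 14 counts in the cortex libraries. The cortex values were 1.75, 12.0 and 3.68 CPM, so by CPM the groups did not overlap, and cortex control 6 h stood out. Over both groups, 3 counts in hippocampus against 85 in cortex gave a ratio of 0.0475 (95% counting interval 0.00960 to 0.144). The unfiltered edgeR change was -3.84 (SE 0.78, adjusted p = 9.16e-05). Th had 0.932, 0.578 and 1.34 CPM in the hippocampus libraries, against 3.89, 1.74 and 7.09 CPM in the cortex libraries. The groups stood close, with 1.34 CPM as the highest hippocampus value and 1.74 as the lowest cortex value. The unfiltered edgeR change was -2.15 (SE 0.66, adjusted p = 0.0309). The call was lost without hippocampus control 1 h (adjusted p = 0.605) and without hippocampus conditioned 6 h (0.252). With a low-count filter set by the design matrix, which kept all 9 members, Th did not pass (-2.14, edgeR adjusted p = 0.0605), while Adora2a (0.00349) and Six3 (0.00353) did.

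**Figure D2:**
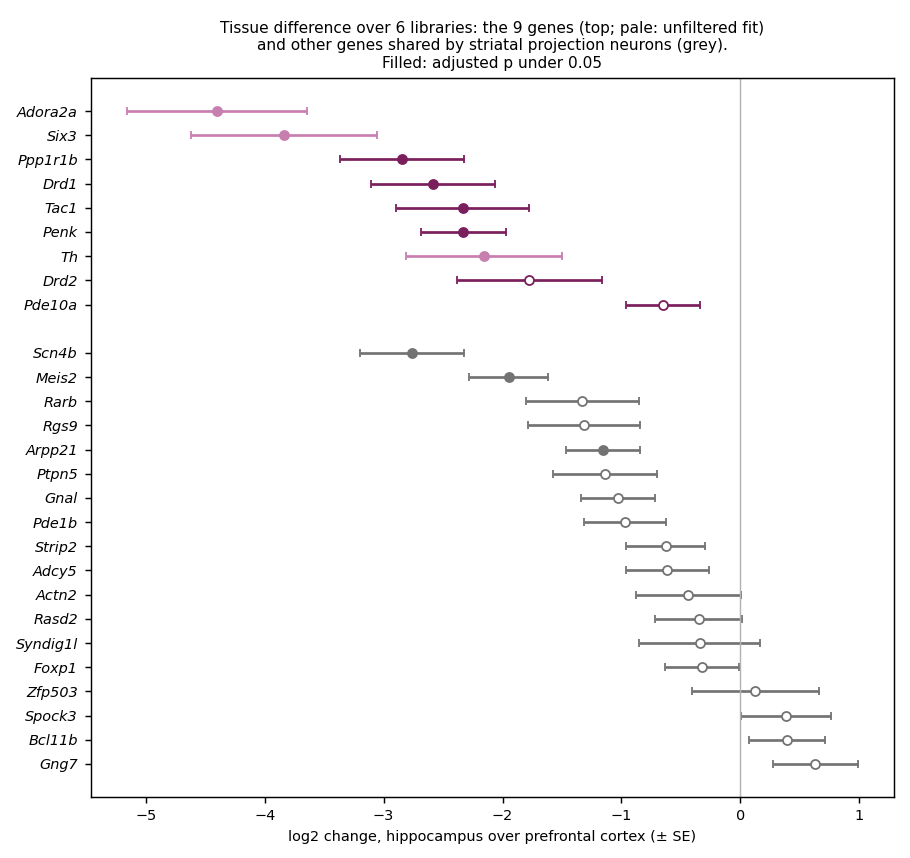
Log2 change of hippocampus over prefrontal cortex from edgeR, with its SE, for the 9 genes (top, pale where they come from the unfiltered fit) and for 18 other genes that striatal projection neurons share (grey), filled where the adjusted p is under 0.05. All 9 genes lie below 0, from -4.40 for Adora2a to -0.65 for Pde10a, and of the others shown, Scn4b, Meis2 and Arpp21 were called lower.

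Further lists of marker genes put these values beside the rest of the tissue. Of 20 other genes that both projection neuron classes use, 19 were tested and 4 were called lower in hippocampus, none higher, with a median log2 change of -0.63. Scn4b, a sodium channel beta subunit, averaged 3.23 ± 1.32 CPM in hippocampus and 22.6 ± 2.53 in cortex (SD, n = 3 each) and changed by -2.76 on the log2 scale (edgeR adjusted p = 0.000696), the homeobox gene Meis2 by -1.95 (0.00130) and Arpp21, a target of protein kinase A, by -1.16 (0.0454). Gnal, which couples dopamine and adenosine receptors to adenylyl cyclase in striatum, was at -1.03 and did not pass (edgeR adjusted p = 0.0814). In the same list Gng7 at 0.63, Bcl11b and Spock3 both at 0.39, and Zfp503 at 0.13 lay above 0, and none of them was called. None of the 3 direct-pathway markers tested out of 7 was called, with Chrm4 at -0.98, Sfxn1 at 0.23 and Eya1 at 0.93, and neither was Sp9 at -0.59, the 1 indirect-pathway marker tested out of 3. The level of these markers was uneven: Chrm4, a muscarinic receptor gene, had 3 to 62 counts a library and Sp9 5 to 44, while Isl1 had 0 to 11 and Gpr6 0 to 6.

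Many cortical and hippocampal neuron genes moved with the same contrast. Of the genes of cortical excitatory neurons, 5 of 9 tested were called lower in hippocampus, among them Lamp5 at -2.67 and Cux2 at -2.32 (log2 change). Penk was at -2.33 and Drd1 at -2.58. The other cortical genes tested were not called: Rorb at -1.23 and Rasgrf2 at -0.76, and above 0, Fezf2 at 0.57 and Tle4 at 0.29. Of the genes of hippocampal excitatory neurons, 10 of 10 were higher in hippocampus. Of these, Dsp, C1ql2 and Tspan18 had 1, 3 and 11 counts over the 3 cortex libraries, so they passed the filter through hippocampus alone. The summed level of the cortical list was 373 to 890 CPM in hippocampus and 1424 to 1872 CPM in cortex, and no gene of it was at 0. Of the choroid plexus genes, 2 of 6 were tested and both were higher in hippocampus. These were Ttr and Kl, with 28 and 21 counts in cortex, and they also passed the filter through hippocampus alone. For Ttr and Kl, as for Dsp, C1ql2 and Tspan18, entry into the test and a higher level in hippocampus are not separate facts. The part of cortical neurons in the difference of the 9 genes was not tested. Olfactory bulb genes gave 0 calls of 2 tested out of 6, and 1 gene each was higher in hippocampus among 10 of oligodendrocytes (Mal), 7 of astrocytes (Gfap) and 5 of thalamus (Prkcd). Genes for transcription factors of subpallial neurons gave 0 calls of 2 tested out of 10 (Dlx1 at 0.47, Dlx5 at -0.69). Interneuron genes gave 0 of 6 tested out of 8, and Ache, the only cholinergic gene tested, was at -0.11.

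In the rest of the pathway, few genes differed between tissues. No other dopamine receptor passed the count filter: Drd3 had at most 2 counts and Drd4 at most 3 in any library, while Drd5 had 26, 5 and 39 counts in hippocampus conditioned 6 h, control 6 h and control 1 h, against 7, 7 and 5 in cortex. Of 10 genes for dopamine synthesis, transport and breakdown, 6 were tested and none was called, with Qdpr, which regenerates the cofactor of Th, at -0.04 (edgeR adjusted p = 0.977). Genes that mark midbrain dopamine neurons gave 1 call of 2 tested out of 6: Nr4a2, which is also an activity-induced gene, was higher in hippocampus at 1.23 (edgeR adjusted p = 0.0368). Of 18 genes of cyclic AMP and protein kinase A signalling, 2 were lower in hippocampus, Pde7b at -1.46 and Prkar1b at -1.19 (edgeR adjusted p = 0.0192 and 0.0479), and none was higher. None of 4 adenosine genes tested out of 8 was called, with the A1 receptor gene Adora1 at 0.83 (0.208), and none of 4 opioid and tachykinin genes out of 10, with the delta opioid receptor gene Oprd1 at -0.79 (0.369).

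**Figure D3:**
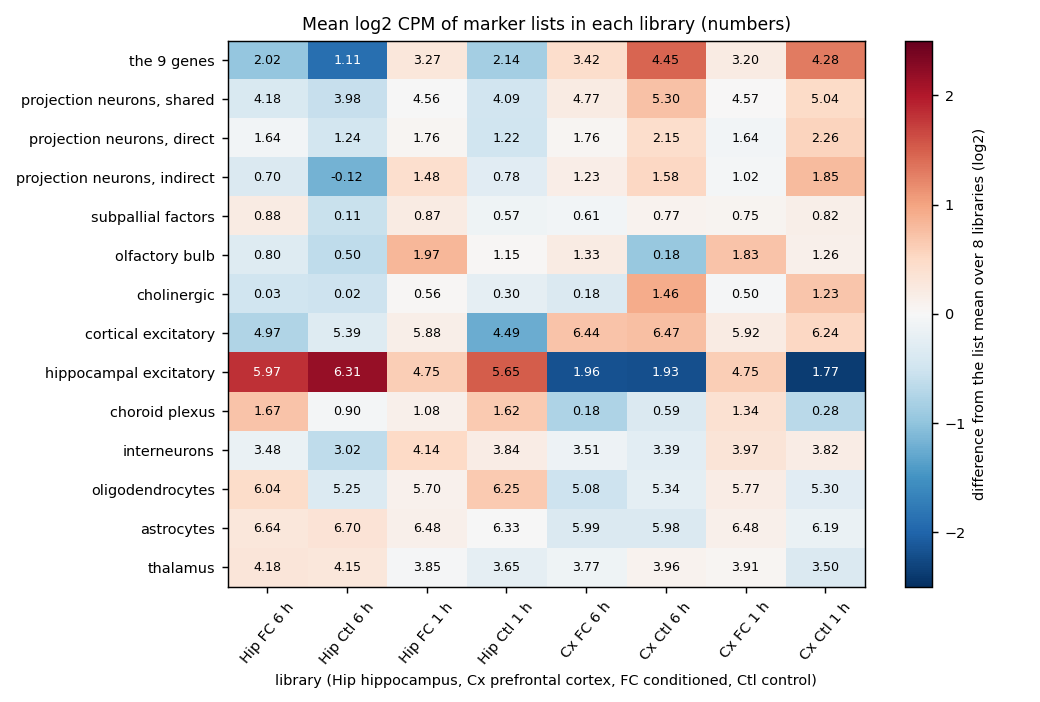
Mean log2 CPM (numbers) of the 9 genes and of 13 marker lists in each library, with hippocampus (Hip) left of prefrontal cortex (Cx), and colour giving the difference from the list's mean over the 8 libraries. The 9 genes ran from 1.11 in hippocampus control 6 h to 4.45 in cortex control 6 h, and hippocampal excitatory genes stood at 4.75 in both conditioned 1 h libraries.

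Conditioned and control mice were compared at 6 h in 4 libraries, with 1 of each per tissue. In cortex the conditioned library was lower than its control for 8 of the 9 members. The 95% counting interval of the ratio lay below 1 for 7 of them, against 10.7% of 11339 genes that passed the low-count filter. No member's interval lay above 1, against 12.6% of these genes. Adora2a, Six3 and Th did not pass that filter. Of the 6 members that passed, Tac1 alone had an interval that included 1. The median log2 ratio was -0.90 over the members and 0.01 over the genes. These intervals cover counting error only, and 1 library a group allows no test within cortex.

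Six3, Adora2a and Drd2 had the lowest ratios in cortex at 6 h. Six3 had 9 counts in conditioned and 62 in control, a ratio of 0.147 (0.0640 to 0.297). Adora2a had 8 counts in conditioned and 49 in control (ratio 0.165, 0.0674 to 0.351), and Drd2 had 9 in conditioned and 45 in control (0.202, 0.0868 to 0.418). All 3 intervals lay well below 1. Drd1, of the direct pathway, had 38 counts in conditioned and 61 in control (0.629, 0.408 to 0.958). Drd1 thus took 80.9% of the Drd1 and Drd2 counts in conditioned cortex (exact binomial interval 66.7% to 90.9%) and 57.5% in control cortex (47.6% to 67.1%), intervals that barely overlap. Ppp1r1b was at 81.6 CPM in conditioned and 153 in control (ratio 0.533, 0.472 to 0.601), and Pde10a at 96.9 CPM in conditioned and 223 in control (0.434, 0.390 to 0.483). The peptides were closest: Penk had a ratio of 0.811 (0.692 to 0.949), and that of Tac1 included 1 (0.744, 0.517 to 1.06). Penk, an indirect-pathway peptide, did not share the low ratios of Adora2a and Six3. Of the 3 further indirect-pathway markers, Gpr52 was lower, with 6 counts in conditioned and 16 in control. Sp9 had 44 counts in conditioned and 42 in control, and Gpr6 had 2 in each. Th ran the other way with 20 counts in conditioned and 9 in control (2.24, 0.977 to 5.60).

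Other marker lists differed in direction between the same cortex libraries. Chat, the enzyme that makes acetylcholine, had 0 counts in cortex conditioned 6 h and 9 in cortex control 6 h, and the choline transporter gene Slc5a7 had 2 in conditioned and 15 in control. Ache was level, with 27 counts in conditioned and 29 in control. The 4 cholinergic genes summed to 5.84 CPM in conditioned and 10.99 CPM in control, with 1 of the 4 at 0 in conditioned and none in control, while cortex control 1 h had 15.5 CPM. The 7 direct-pathway markers summed to 58.8 CPM in conditioned and 51.9 CPM in control. Their mean log2 CPM ran the other way, at 1.76 in conditioned and 2.15 in control. Among them Isl1 had 2 counts in conditioned and 11 in control, and Pdyn 8 in conditioned and 21 in control, while Chrm4 had 44 in conditioned and 28 in control, and Eya1 61 in conditioned and 42 in control. The 20 further genes that projection neurons share summed to 1342 CPM in conditioned and 1666 in control. Cortical excitatory genes were level, at a mean of 6.44 log2 CPM in conditioned and 6.47 in control. Olfactory bulb genes were higher in conditioned: the 6 of them summed to 22.6 CPM there and 9.83 CPM in control. Doc2g had 14 counts in conditioned and 0 in control, Eomes 10 and 0, and Cdhr1 61 and 22. Calb2 was level, with 29 counts in conditioned and 28 in control. The part of an uneven share of striatal tissue in the ratios between these libraries was not tested.

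In hippocampus at 6 h the ratio of Pde10a was below 1 as in cortex, while that of Ppp1r1b was above 1. Ppp1r1b had 123 counts in conditioned and 4 in control, a ratio of 12.4 (4.72 to 46.2). Tac1 had 14 counts in conditioned and 0 in control, with a lower interval bound of 1.34. Pde10a was lower in conditioned, with 80.2 CPM in conditioned and 119 in control (ratio 0.676, 0.567 to 0.808). The other 6 members had intervals that included 1, with 8 counts or fewer in each library except for Penk (63 in conditioned and 17 in control, ratio 1.49, 0.863 to 2.72). Of the 9, then, 2 intervals lay above 1 and 1 below. The shares were 26.5% and 27.4% of genes that passed the low-count filter, as Ppp1r1b, Tac1 and Pde10a did. The control library of this pair is the shallow one in which Kif5c took 8.01% of counts, and its part in these ratios was not tested. Over both tissues at 6 h, the log2 training change of Ppp1r1b was 0.51, and -0.021 with GC and length trends removed.

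**Figure D4:**
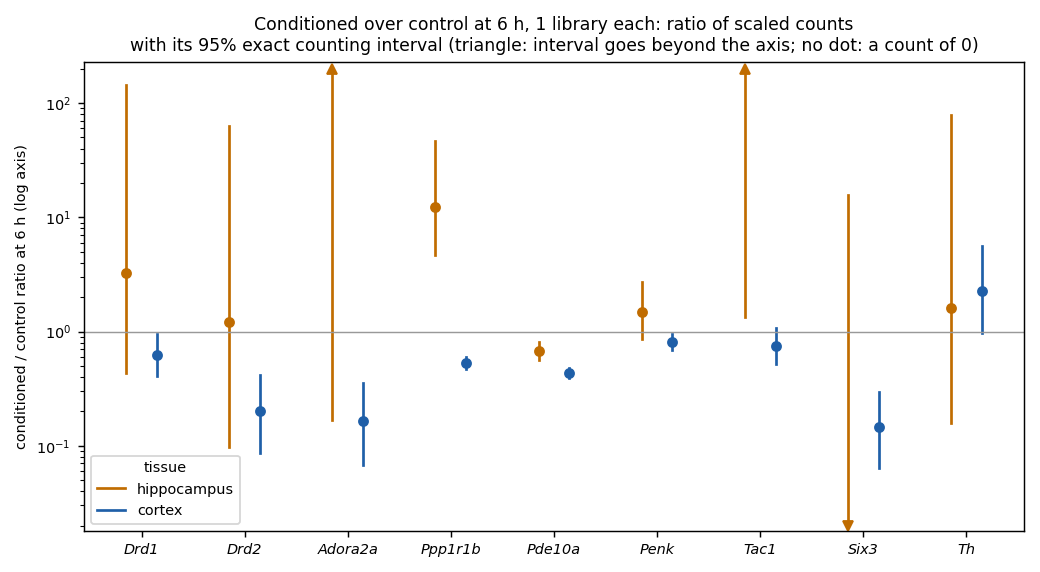
Ratio of conditioned to control at 6 h (log axis) in hippocampus (orange, left of each pair) and prefrontal cortex (blue) for the 9 genes, 1 library each, with the 95% exact counting interval. A triangle marks an interval beyond the axis, and a dot is left out where a count is 0. In cortex 7 intervals lie below 1, while in hippocampus Ppp1r1b and Tac1 lie above 1 and Pde10a below.

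Over both tissues no member passed. The edgeR fit on 6 libraries, adjusted over 15555 rows, called 0.0% of rows for conditioned against control at 6 h, with 620 rows at an unadjusted p under 0.05, and DESeq2 called none either. Among the members, Drd2 was at -1.83 (SE 0.74, edgeR adjusted p = 0.902) and Pde10a at -0.88 (SE 0.38, adjusted p = 0.902), of which Pde10a was lower in conditioned in both tissues, while Drd2 had only 3 counts in conditioned and 1 in control in hippocampus. Six3 was at -2.80 (SE 0.81) in the unfiltered edgeR fit, with an unadjusted p of 0.000587 and an adjusted p of 0.664. Ppp1r1b, at 0.51 (SE 0.63, edgeR adjusted p = 0.913), averaged ratios of opposite direction. The difference in training effect, hippocampus minus cortex, was positive for the 6 members that passed the filter, with Ppp1r1b at 2.19 (SE 0.79, unadjusted p = 0.00561, edgeR adjusted p = 1.00). In the unfiltered edgeR fit Adora2a was at 7.54 (unadjusted p = 0.00209, adjusted p = 1.00), a value that rests on a count of 0, Six3 at -2.27 and Th at 0.21. No row was called for that difference by edgeR (477 rows at an unadjusted p under 0.05), which had 1 residual degree of freedom, and 1 row by DESeq2, which was no member. Without cortex control 6 h, 2 members were called for training, Ppp1r1b at 3.37 (edgeR adjusted p = 0.000162) and Tac1 at 6.65 (0.0471), both higher in conditioned, but that fit called 2093 of 15746 rows. The Tac1 value rests on a hippocampus control with 0 counts and is no bound. None of the genes of the other lists was called for training at 6 h.

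The conditioned 1 h pair lay between the 1 h controls for most members. Taking cortex control 1 h as 0 and hippocampus control 1 h as 1 on the log2 scale, the library labelled hippocampus stood at 0.31 for Drd1, 0.59 for Adora2a, 0.54 for Ppp1r1b, 0.31 for Penk and 0.19 for Tac1. The library labelled cortex stood at 0.43, 0.41, 0.58, 0.42 and 0.43 for the same genes. The library labelled hippocampus was thus nearer to cortex control for Drd1, Penk and Tac1, and near the middle for the other 2. For Tac1 the summed pair was at 0.692 of cortex control 1 h (0.453 to 1.07). That interval includes 1, so the pair was not separated from cortex control for this gene. For each of the 9 members the ratio between the 2 libraries had an interval that included 1. Drd2 and Pde10a, whose 1 h controls differed by less than 1 on the log2 scale, were not placed. Pde10a lay below both controls, with 66.3 CPM in the library labelled hippocampus and 55.8 in that labelled cortex, against 70.7 in hippocampus control 1 h and 119 in cortex control 1 h (summed pair over hippocampus control 0.862, 0.749 to 0.995). Set against the labelled controls, 6 members had ratios with intervals above 1 in hippocampus (17.6% of genes did, and 19.0% lay below 1). In cortex, 7 had intervals below 1 (11.5% of genes did, and 11.4% lay above 1). The shares are of genes that passed the low-count filter. Adora2a and Th among the 6, and Adora2a and Six3 among the 7, did not pass it. Since the pair was 1 sample by its counts, these ratios are not 2 training effects.

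Th lay above both controls, and Six3 stood with hippocampus control. Th had 49 counts in the library labelled hippocampus and 51 in that labelled cortex, against 6 in hippocampus control 1 h and 27 in cortex control 1 h. Both conditioned libraries exceeded every other library of the series, with 11.8 and 11.6 CPM. Summed, the pair had 11.7 CPM (9.52 to 14.2), 8.75 times hippocampus control 1 h (3.88 to 24.4) and 1.65 times cortex control 1 h (1.07 to 2.63). Six3 had 1 and 2 counts in the pair, against 2 in hippocampus control 1 h and 14 in cortex control 1 h. The pair was at 0.0955 of cortex control 1 h (0.0176 to 0.342) and 0.787 of hippocampus control 1 h (0.0902 to 9.42), on 3 counts.

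In the olfactory bulb Th marks dopaminergic interneurons. A list of 6 olfactory bulb genes summed to 49.5 CPM in the library labelled hippocampus and 48.6 in that labelled cortex, against 39.0 in hippocampus control 1 h and 29.7 in cortex control 1 h, and 9.83 to 24.9 in the 6 h libraries. The largest of them, Calb2, was not highest in the pair, with 100 and 98 counts there, against 138 counts (30.8 CPM) in hippocampus control 1 h. Doc2g, a gene of olfactory bulb output neurons, had 26 and 28 counts in the pair, against 6 in hippocampus control 1 h and 4 in cortex control 1 h. It also had 14 in cortex conditioned 6 h. Cdhr1 had 65 and 79 counts in the pair, against 28 in hippocampus control 1 h and 47 in cortex control 1 h, and 61 in cortex conditioned 6 h. Eomes, another such gene, had 14 and 7 counts in the pair, against 2 in hippocampus control 1 h and 3 in cortex control 1 h, and 10 in cortex conditioned 6 h. S100a5, a marker of olfactory sensory neurons, was at 0 in all 8 libraries, and Tbx21 had 1 count in each library of the pair. Defining genes of midbrain dopamine neurons were at or near 0: Pitx3, En1 and Foxa2 had no counts in any library, and the dopamine transporter gene Slc6a3 had at most 3. Ddc, the enzyme after Th, had 4 and 13 counts in the pair, against 5 in hippocampus control 1 h and 9 in cortex control 1 h. The part of olfactory tissue in the Th level was not tested.

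**Figure D5:**
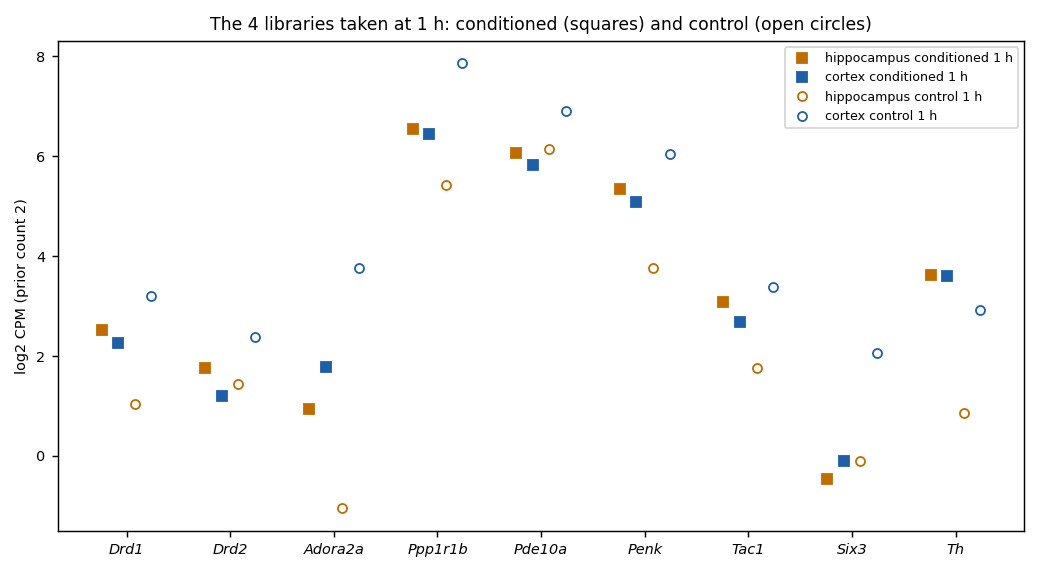
Log2 CPM (prior count 2) of the 9 genes in the 4 libraries taken at 1 h, conditioned as squares and control as open circles, hippocampus in orange and cortex in blue. The 2 squares lie close to each other for most genes. They are widest apart for Adora2a, at 0.944 in the library labelled hippocampus and 1.78 in that labelled cortex. They lie between the circles for Drd1, Adora2a, Ppp1r1b, Penk and Tac1, above both for Th, and near the lower circle for Six3.

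Between 6 h and 1 h, compared in controls within the same 6-library fit, no member was called, where edgeR called 13.2% of rows higher at 6 h and 10.3% lower, 23.5% in all (10.1% higher and 9.44% lower with no filter). This comparison shares its 6 h control libraries with the training comparison. Ppp1r1b was at -1.46 (SE 0.60, edgeR adjusted p = 0.0784), with 4 counts at 6 h and 190 at 1 h in hippocampus and 794 at 6 h and 887 at 1 h in cortex. Pde10a ran upward in both tissues, at 119 CPM at 6 h and 70.7 at 1 h in hippocampus, and 223 at 6 h and 119 at 1 h in cortex (log2 change 0.82, SE 0.38, edgeR adjusted p = 0.117). Drd1, Drd2, Penk and Tac1 lay between -0.11 and 0.24. The count of called members was 2 without cortex control 6 h, where 6888 of 15746 rows were called, and 1 without either conditioned 6 h library, where 3926 of 15751 and 3920 of 15767 rows were. The value of Ppp1r1b ran from -4.51 without cortex control 6 h to -0.40 without hippocampus control 6 h, and was -0.18 with GC and length trends removed. In cortex controls alone, Six3 had 62 counts at 6 h and 14 at 1 h, a ratio of 3.25 (1.80 to 6.29), and Th had 9 at 6 h and 27 at 1 h (0.245, 0.101 to 0.536). Drd2 had a ratio of 1.84 (1.04 to 3.37) and Adora2a, with 49 counts at 6 h and 50 at 1 h, one of 0.720 (0.475 to 1.09). The cortex controls thus did not run the same way for Six3 and Adora2a, which both mark indirect-pathway neurons. Among the genes of the other lists, Meis2 was higher at 6 h (1.32, edgeR adjusted p = 0.0249), while Qdpr (-1.60) was lower. Of the 18 cyclic AMP and protein kinase A genes, 3 were higher at 6 h, Ppp1cb (1.35), Pde4d (1.27) and Pde4b (1.09), and 2 were lower, Caly (-1.77) and Cdk5 (-1.70).

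Over the 8 libraries most members ran in parallel. The mean log2 CPM of 7 members, without Six3 and Th, was 2.68 in hippocampus conditioned 6 h, 1.40 in control 6 h and 2.65 in control 1 h, against 3.92, 5.03 and 4.79 in the cortex libraries of the same sessions. The conditioned 1 h pair stood between them at 3.75 in the library labelled hippocampus and 3.61 in that labelled cortex. Pearson's r of a member with the mean of the others, over 8 libraries that share their depth, tissue and 1 near-duplicate pair, was 0.979 for Drd1, 0.948 for Penk, 0.905 for Tac1 and 0.895 for Ppp1r1b. It was 0.880 for Adora2a, 0.852 for Drd2, 0.730 for Six3, 0.570 for Th and 0.309 for Pde10a. The tissue contrast runs through these values, so they describe the libraries and carry no p. Of 8558 genes with an average of at least 3 on the log2 CPM scale, those whose profile was most like the mean of the 7 members were Ldlrad4 (r = 0.985), Mapt (0.981), Pcp4l1 (0.980), Ankrd63 (0.974) and Dclk3 (0.965). Adcy5, the main adenylyl cyclase of striatal neurons, was the eighth at 0.957. The nearest to Six3 was Rnf144a (0.965), and the nearest to Th was Sdk2 (0.967), which stood at 20.9 and 21.7 CPM in the conditioned 1 h pair, against 8.47 in hippocampus control 1 h and 21.0 in cortex control 1 h.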

How the data were processed

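Libraries of polyribosome-associated RNA were depleted of ribosomal RNA, primed with random hexamer and poly A primers and amplified by SPIA and PCR, per the labels' protocols. The authors deposited raw read counts, whole numbers for each RefSeq transcript. CASAVA 1.7, TopHat 1.3.1, edgeR 2.612, limma 3.12.3 and build mm9 were named without role or order, per the submitters' processing notes. Nothing in the sources used here names the counting program or its strand setting, so reads of overlapping genes may be shared. The table held 28157 rows with 27304 identifiers. Of the rows, 97.9% were matched to a symbol, and the unmatched held 1.19% to 1.99% of a library's counts.

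The members and the 19 companion lists (161 genes) were chosen with earlier results of these data known. Named companions were, per list, up to 4 called genes of largest tissue change with an average log2 CPM of at least 2, or else the 2 most abundant tested genes, and up to 2 called genes in other comparisons. Gnal, Gng7, Bcl11b, Spock3, Zfp503, Rorb, Rasgrf2, Fezf2, Tle4, Chrm4, Pdyn, Ppp1cb, Pde4d and Pde4b were named after their values were seen. So were Drd5, Chat, Slc5a7, Isl1, Gpr6, Doc2g, Eomes and other genes given by counts. Tests used R 4.3.3 and edgeR 4.0.16 (quasi-likelihood F test, robust, TMM factors, low-count filter with tissue as group, Benjamini-Hochberg at 0.05), with tissue, time and training at 6 h as terms. The 6 libraries left 2 residual degrees of freedom, and the training by tissue term left 1. The script was tested on simulated data. CPM use TMM factors over 8 libraries, and log2 CPM a prior count of 2. Intervals are exact at 95% (Poisson, or binomial for ratios and shares). As reads without molecular identifiers are not independent molecules, intervals and the limits for a count of 0 (3 counts) cover counting error only. Alternatives were DESeq2 1.42.0, other scaling factors, no filter, a design-based filter, rows summed per gene, Kif5c left out, all 8 libraries as labelled, GC and length trends removed, and each library left out. The design-based filter, and the removal of GC and length trends outside the time comparison, were chosen after seeing the data. Some companion genes are not reported here.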

Additional observations from a re-analysis of the deposited data

Results flagged for a closer look

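Th stood at 11.7 CPM in the summed conditioned 1 h libraries, which the main fits left out, above its level in hippocampus control 1 h (1.34 CPM) and in cortex control 1 h (7.09 CPM). It drew notice as a signal in data outside the tested comparisons that exceeded both controls of its time. Both libraries of the pair had it, at 11.8 CPM in that labelled hippocampus and 11.6 CPM in that labelled cortex. With 1 sample by counts, no test applies.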

How the results depend on the processing

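Every group holds 1 sample and the labels carry no replicate numbers, so libraries could not be paired by animal. The tissue comparison was matched by session, through the time and training terms of the fit. The tissue difference kept its direction in each alternative in which a member was tested. Adora2a, Six3 and Th passed the filter in few of them and have no value under DESeq2, other scaling, summed rows or trend removal. The number of members called for tissue was 4 as reported, where 541 of 15555 rows were called. It was 7 with no filter (921 of 21904 rows called) and 0 with all 8 libraries as labelled (0 of 15514). With a library left out it was 2 to 7. It was 2 without cortex control 1 h (136 of 15933 rows called) and 7 without hippocampus control 6 h (858 of 16106), a fit that kept all 9 members. For training at 6 h the count of 0 became 2 without cortex control 6 h (range 0 to 2), with Ppp1r1b at 3.37 and Tac1 at 6.65, in a fit that called 2093 of 15746 rows. For 6 h against 1 h it became 1 with no filter (4279 of 21904 rows called) and 2 with 8 libraries (7146 of 15514 rows called). With a library left out it was 0 to 2 (2 without cortex control 6 h, and 1 without either conditioned 6 h library). The count for the training by tissue term stayed at 0.

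Signs turned only for changes that had not passed. For training, Drd1 was 0.037 with the conditioned 1 h pair summed, Ppp1r1b -0.021 and Penk -0.14 with GC and length trends removed. With a library left out, training values ran from -0.61 to 1.48 for Drd1, -2.58 to 4.87 for Adora2a, -0.68 to 3.37 for Ppp1r1b, -0.24 to 0.48 for Penk and -0.44 to 6.65 for Tac1. For time, Drd1 was -0.032 by DESeq2, -0.042 with 8 libraries and -0.35 with the trends removed, Drd2 was -0.058 by DESeq2 and -0.25 with 8 libraries, and Penk was 0.48 with the trends removed. With a library left out, time values ran from -1.62 to 0.51 for Drd1, -0.70 to 0.84 for Drd2, -0.60 to 0.17 for Penk and -6.58 to 0.56 for Tac1. The cause was not tested. Counts of 10 or fewer for receptors, Six3 and Th in hippocampus limit what could be seen there.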
